A study of Mus musculus with 2 samples.

Results

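Wnt pathway genes were described in the chromatin accessibility data of the embryonic mouse striatum, through 43 genes given as a fixed list. They comprised 19 Wnt ligand genes, 12 receptor genes (the Frizzled genes Fzd1 to Fzd10 and the co-receptor genes Lrp5 and Lrp6), 5 secreted inhibitor genes (Sfrp1, Sfrp2, Dkk1, Dkk2 and Dkk3) and 7 effector genes (Axin1, Axin2, Ctnnb1, Lef1, Tcf7, Tcf7l1 and Tcf7l2). A locus is the RefSeq span of a gene with 50 kb on each side, and every peak overlapping a locus by at least 1 bp was taken. All 43 genes were found, and their loci held 441 distinct peaks, 0.506% of the 87174 in the series.

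The data are single-nucleus ATAC-seq, in which a transposase cuts and tags open chromatin in isolated nuclei. The 2 libraries form 1 group, striatum of wild-type embryos at E14.5 on a C57BL/6J and CD1 background. Neither a mutant nor a second tissue or age was included, so the comparisons set gene classes against each other and against other genes. The authors' result is 1 list of peak positions for both libraries, with no count or score. Depth, the nuclei in which a peak was open and the spread between libraries are therefore unknown, and no value below has a replicate error or a test. Accessibility in few nuclei and weak accessibility in many cannot be told apart. Marker genes were set beside the label, from lists chosen with earlier results of these data known, so they do not test it. A peak lay within 1 kb of a gene end at 15 of 15 ganglionic eminence and striatal markers and 6 of 6 cortical excitatory markers. By this measure those 2 lists could not be told apart. The counts were 4 of 6 for cortical hem and choroid plexus, 5 of 6 for meningeal and mesenchymal and 3 of 5 for endothelial markers. They were 2 of 5 for microglial and 1 of 4 for liver markers, beside 67.3% of all protein-coding genes. Very broad peaks, those of the broadest 1% of the series, lay on 11 of the 15 striatal markers, beside 3.80% of all protein-coding genes. Of the other markers only Otx2, of the hem and choroid plexus list, had one. The markers are not all independent. Dlx1 and Dlx2 share a peak of 25417 bp and Dlx5 and Dlx6 one of 25330 bp. Ttr is in both the choroid plexus and the liver list.

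Wnt ligands are secreted, lipid-modified proteins that bind Frizzled receptors together with the co-receptors Lrp5 and Lrp6. Without ligand, a complex built on Axin proteins marks β-catenin, the product of Ctnnb1, for destruction. With ligand, β-catenin accumulates and acts on target genes through the DNA-binding factors Lef1, Tcf7, Tcf7l1 and Tcf7l2. Sfrp proteins bind Wnt ligands outside the cell, and Dkk1 and Dkk2 bind the Lrp co-receptors. In the embryonic telencephalon the cortical hem at the dorsal midline is a known source of Wnt ligands.

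Promoter sequences show what the peaks covered. RefSeq promoters of build GRCm38.p6, which run from 250 bases before to 50 bases after a transcript start, were listed for 30 of the 43 genes, 39 promoters in all. The remaining 13 genes were Wnt5a, Wnt7b, Wnt8a, Wnt10a, Fzd2, Fzd3, Fzd6, Fzd8, Sfrp1, Dkk3, Axin1, Lrp5 and Lrp6. Of the printed sequences, 6 bear on the TCF/LEF core TCAAAG (reverse complement CTTTGA), the recognition core of the pathway's own DNA-binding factors, which is in capitals on either strand. It stood in 5 of the 39 promoters (12.8%), beside 14.4% of the protein-coding and 16.0% of all promoters of that length. Those 5 and the promoter of Axin2, a textbook target of the pathway that lacks these letters in this window, are shown 5′ to 3′ on the gene's strand.
Dkk1, chr19:30549447-30549746, minus strand: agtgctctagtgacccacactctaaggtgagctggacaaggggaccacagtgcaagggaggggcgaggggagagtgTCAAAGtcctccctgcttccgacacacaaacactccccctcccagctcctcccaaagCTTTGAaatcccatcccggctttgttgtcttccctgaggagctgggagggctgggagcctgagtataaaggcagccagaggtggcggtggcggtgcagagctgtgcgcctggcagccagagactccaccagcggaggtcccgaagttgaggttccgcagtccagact
Fzd1, chr5:4758167-4758466, minus strand: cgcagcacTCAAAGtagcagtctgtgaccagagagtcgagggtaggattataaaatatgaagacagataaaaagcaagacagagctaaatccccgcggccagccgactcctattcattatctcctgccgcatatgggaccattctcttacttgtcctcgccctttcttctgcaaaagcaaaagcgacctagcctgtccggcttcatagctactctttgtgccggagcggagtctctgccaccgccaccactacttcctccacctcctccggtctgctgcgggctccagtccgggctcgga
Wnt11 start 1, chr7:98834862-98835161, plus strand: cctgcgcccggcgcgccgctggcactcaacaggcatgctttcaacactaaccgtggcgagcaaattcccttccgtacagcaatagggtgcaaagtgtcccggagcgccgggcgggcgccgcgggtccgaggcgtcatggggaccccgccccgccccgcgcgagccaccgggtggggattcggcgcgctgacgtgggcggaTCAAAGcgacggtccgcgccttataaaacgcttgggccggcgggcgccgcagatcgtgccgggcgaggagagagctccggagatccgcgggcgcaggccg
Wnt5b start 3, chr6:119449337-119449636, minus strand: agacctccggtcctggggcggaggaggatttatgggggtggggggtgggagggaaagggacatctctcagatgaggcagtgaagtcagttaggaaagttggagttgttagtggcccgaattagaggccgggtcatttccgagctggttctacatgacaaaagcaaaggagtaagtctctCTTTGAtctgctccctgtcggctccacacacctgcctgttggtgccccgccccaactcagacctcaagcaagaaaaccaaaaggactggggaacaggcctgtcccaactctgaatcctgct
Lef1 start 4, chr3:131156044-131156343, plus strand: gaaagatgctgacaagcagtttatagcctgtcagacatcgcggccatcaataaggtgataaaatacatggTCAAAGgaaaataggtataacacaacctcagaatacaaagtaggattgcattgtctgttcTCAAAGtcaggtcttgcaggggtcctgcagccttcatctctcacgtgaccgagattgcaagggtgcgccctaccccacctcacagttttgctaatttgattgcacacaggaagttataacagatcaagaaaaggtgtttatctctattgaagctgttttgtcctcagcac
Axin2, chr11:108920099-108920398, plus strand: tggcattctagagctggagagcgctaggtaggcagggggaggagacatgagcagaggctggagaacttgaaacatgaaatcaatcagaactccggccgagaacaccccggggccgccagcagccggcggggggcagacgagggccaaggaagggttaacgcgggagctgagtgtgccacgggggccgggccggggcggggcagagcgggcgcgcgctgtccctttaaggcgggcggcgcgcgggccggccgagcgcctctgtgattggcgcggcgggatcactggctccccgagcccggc

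In Dkk1 the 2 matches began 174 and 117 bases before the start, one on each strand. Fzd1 had its single match 242 bases before the start, Wnt11 50 bases and Wnt5b 71 bases before it. Both matches of Lef1 lay before start 4 of those listed, at 180 and 120 bases. Of these 5 promoters the first 4 lay wholly under a peak, as did that of Axin2, whereas the nearest peak to Lef1 start 4 was 16447 bp away.

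Letters bound by relatives of the homeodomain factors in the study's title were searched in the same promoters. The MEIS letters TGACAG (reverse complement CTGTCA) occurred in 6 promoters (15.4%), those of Wnt1, Wnt3, Wnt4, Tcf7l1, start 1 of Tcf7l2 and start 4 of Lef1, beside 18.7% of protein-coding promoters. The DLX-type letters TAATTA, the same on both strands, occurred only in Wnt8b (2.56%), beside 4.53%. The 3 motifs differ in their letters, so matches of one can overlap those of another only in part.

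Every member had a peak near a gene end. A peak lay within 1000 bp of either end of the gene span at 43 of 43 members, beside 67.3% of the 21774 protein-coding genes and 73.5% of these when weighted to the members' length classes. The exact 95% interval, which covers counting of genes only, had a lower bound of 91.8%. It takes genes as independent draws, whereas the members are a fixed list and some share peaks. All 4 classes reached 100%, so the classes could not be told apart by this measure. A peak overlapped the span itself at 43 of 43 members and at 73.3% of protein-coding genes. The presence of a gene-end peak did not separate ligands, receptors, inhibitors and effectors, and it included ligands such as Wnt1, Wnt8a and Wnt16.

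Where transcript starts were listed, 28 of 30 members had a peak on at least 1 of their promoters, beside 64.8% of protein-coding genes. By promoter, 35 of 39 (89.7%) lay under a peak against 64.4% of protein-coding promoters. The members' promoters were rich in CpG dinucleotides, with a median of 27 in 300 bases against 13 and a median GC content of 70.0% against 56.3%. Among protein-coding promoters the share with a peak was 5.21% at 0 to 2 CpG and 98.6% at 24 to 67 CpG, and weighting to the members' CpG classes gave 87.3%. The members' 89.7% was thus near the share of promoters of like CpG content. Peaks on members' promoters reached further downstream than upstream of the start at 26 of 35 (74.3%), beside 64.6% of protein-coding promoters under a peak. The medians were 1756 bp downstream and 1091 bp upstream, beside 938 and 732 bp for protein-coding promoters. Starts of 1 gene can share a peak, as at Lef1, Wnt11, Ctnnb1 and Tcf7, so some peaks count more than once.

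**Figure D1:**
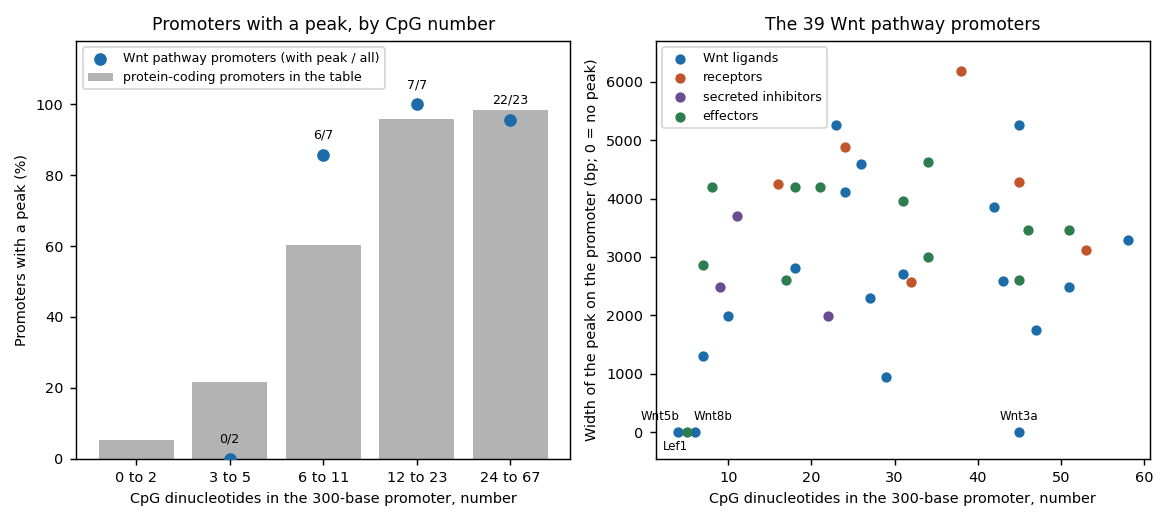
Promoters with a peak by CpG content. Left, the percentage of 300-base protein-coding promoters with a peak (grey bars) in 5 classes of CpG number, with Wnt pathway promoters as points labelled by number with a peak and number in all: 22 of 23 in the class of 24 to 67 CpG. Right, each of the 39 Wnt pathway promoters by CpG number and width in bp of the peak on it, coloured by class. Wnt3a stands alone at 45 CpG with no peak.

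The listed promoters of 2 ligand genes, Wnt3a and Wnt8b, had no peak, and both are shown because they are the exceptions. Both are known from the cortical hem, as is Wnt2b, whose promoter lay under a peak of 2591 bp. Ligands of the hem are not listed in full here, and a link between the hem and a missing peak was not tested. In the Wnt3a sequence capitals mark the 45 CpG dinucleotides, and in Wnt8b they mark the TAATTA letters, 36 bases before the start.
Wnt3a, chr11:59290702-59291001, minus strand: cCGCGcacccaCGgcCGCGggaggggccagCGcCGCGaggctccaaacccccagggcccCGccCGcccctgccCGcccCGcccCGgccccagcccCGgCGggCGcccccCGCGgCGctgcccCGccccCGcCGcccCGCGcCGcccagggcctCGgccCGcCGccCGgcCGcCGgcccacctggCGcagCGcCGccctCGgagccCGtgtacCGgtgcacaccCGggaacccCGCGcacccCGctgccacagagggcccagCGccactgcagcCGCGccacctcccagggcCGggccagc
Wnt8b, chr19:44493222-44493521, plus strand: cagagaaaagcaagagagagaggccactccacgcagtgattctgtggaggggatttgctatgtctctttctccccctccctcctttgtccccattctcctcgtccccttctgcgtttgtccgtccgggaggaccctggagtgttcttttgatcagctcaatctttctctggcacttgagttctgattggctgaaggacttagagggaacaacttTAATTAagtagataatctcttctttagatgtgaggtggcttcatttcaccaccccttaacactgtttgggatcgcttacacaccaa

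Wnt3a had a GC content of 86.3% and was the only one of 23 Wnt pathway promoters in the CpG-richest class that lay outside a peak, in a class where 98.6% of protein-coding promoters lay under one. Its gene-end peak was a narrow one of 575 bp inside the gene, from 59289623 to 59290198 on chromosome 11, which ended 553 bp from the start. This was the narrowest value when the widest gene-end peak of each member was taken, where the median over members was 2994 bp. Wnt8b had 6 CpG and a GC content of 48.3%, and its start lay 5900 bp from the nearest peak. In its class of 6 to 11 CpG, 60.2% of protein-coding promoters had a peak. The gene-end peak of Wnt8b, 1220 bp wide, lay 106 bp beyond the far end of the gene, and a peak of 1965 bp lay inside it. Both loci nonetheless held more peaks than the median of 6 in their length classes, 16 at Wnt3a and 10 at Wnt8b.

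Starts were numbered from the 5′ end of the gene, and genes with several listed starts differed in which of them lay under a peak. Lef1, encoding a DNA-binding partner of β-catenin, had a peak of 4202 bp over starts 1 to 3 and none on start 4, 45997 bp downstream. Tcf7l2, encoding another such factor, had a peak of 4621 bp on start 1. Another of 2864 bp covered 90% of the promoter of start 2, 153511 bp downstream. That promoter held 7 CpG, and 60.2% of protein-coding promoters with 6 to 11 CpG had a peak. At Wnt5b, a ligand of β-catenin-independent signalling, starts 1 and 3 lay under peaks of 1744 and 1304 bp and start 2 was 4930 bp from a peak. Both starts of Wnt11 lay under 1 peak of 5264 bp, and those of Ctnnb1 and Tcf7 under peaks of 3455 and 2612 bp.

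Ligands had a median of 11 peaks per locus, receptors 9, effectors 12 and secreted inhibitors 6. Together members had a median of 11 peaks per locus (range 2 to 40) and protein-coding genes one of 6, and 33 of 43 members exceeded the median of protein-coding genes of their length class, which 46.2% of protein-coding genes did. That count was 16 of 19 ligands, 9 of 12 receptors, 6 of 7 effectors and 2 of 5 secreted inhibitors. The locus of a member held a median of 1 other protein-coding gene against 3 for all protein-coding genes. Across the 43 members the number of peaks had a Spearman rho of 0.37 with the number of other coding genes. Distal peaks, those more than 1000 bp from the end of any annotated gene, had one of 0.46 with gene length. Distance was taken from the ends of gene spans, so a peak on a start inside a span can count as distal. Members in 4 neighbouring pairs share peaks, so these points are not independent.

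**Figure D2:**
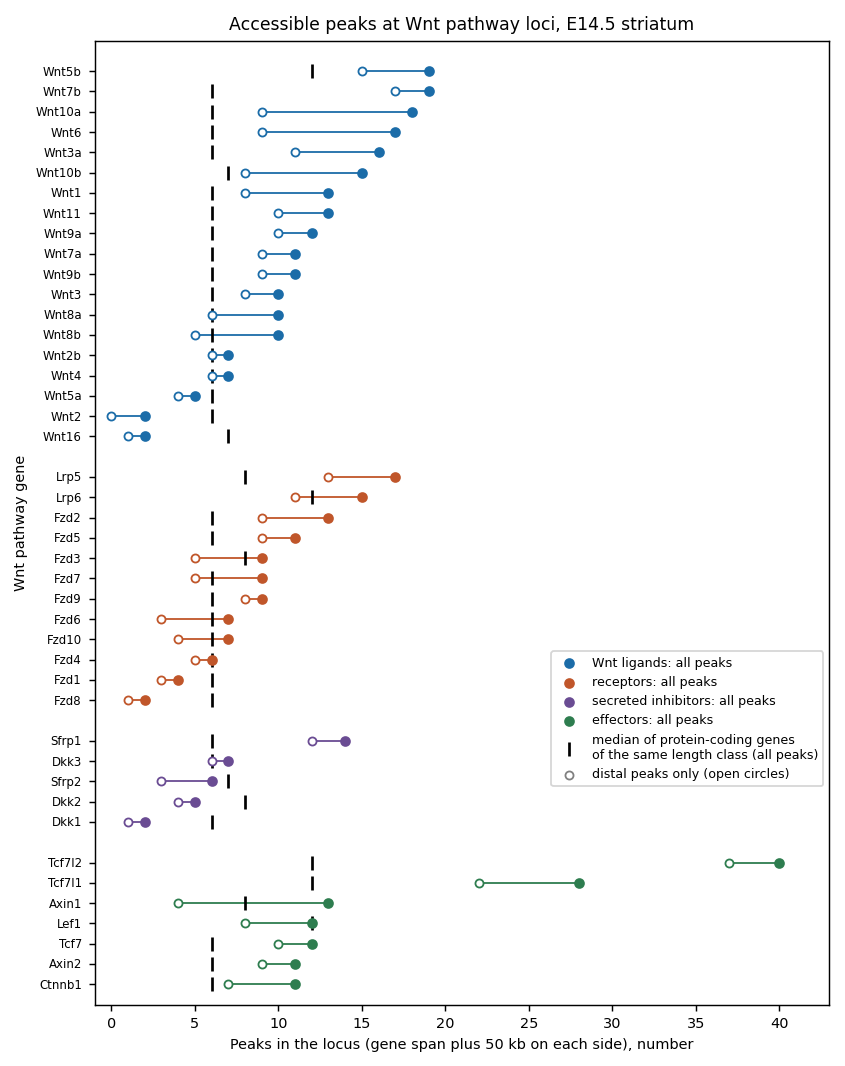
Number of peaks in each of the 43 loci, ordered within class. Filled circles are all peaks, open circles distal peaks and black ticks the median of protein-coding genes of the same length class. Tcf7l2 lies furthest to the right at 40 peaks, and Wnt2, Wnt16, Fzd8 and Dkk1 have 2 each.

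Counted once and per length of locus, effectors had 95.5 peaks per Mb, ligands 80.6, receptors 69.9 and secreted inhibitors 49.4, beside 42.5 per Mb over all protein-coding loci. The ratios to all protein-coding loci were 2.25, 1.90, 1.65 and 1.16. The order of the classes depended on single members and on how peaks were counted. Without Tcf7l1 and Tcf7l2 the effectors had 76.1 peaks per Mb (1.79 times), which is below the ligands. With a flank of 10 kb ligands and effectors stood together (2.44 and 2.43 times), and with only peaks wider than the median of 565 bp secreted inhibitors (1.64 times) passed receptors (1.51 times). In each of these ways of counting all 4 ratios were above 1, with 1.05 for secreted inhibitors at a flank of 100 kb as the lowest. The inhibitor ratio rested on Sfrp1, without which the class had 36.3 peaks per Mb (0.854 times).

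**Figure D3:**
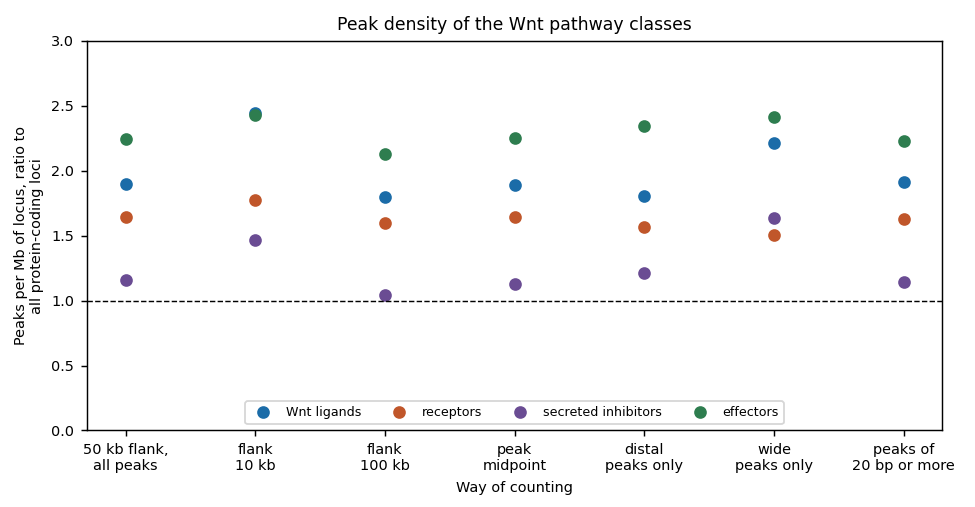
Peaks per Mb of locus in each class, as a ratio to the loci of all protein-coding genes (dashed line at 1), for 7 ways of counting. Points are classes, without error since there is 1 peak list. Secreted inhibitors lie lowest in all but the count of wide peaks, where receptors do.

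Where the peaks lay differed between classes, with ends taken as those of the gene span. A peak on a start further inside the span, such as that of Axin2, counted as inside the gene. Among effectors 70 of 127 peaks (55.1%) lay inside the gene away from its ends, against 46 of 217 (21.2%) for ligands, 16 of 109 (14.7%) for receptors and 11 of 34 (32.4%) for secreted inhibitors, where a peak of 2 ligand loci counts for both. Without Tcf7l1 and Tcf7l2 the effectors had 19 of 59 peaks there (32.2%), close to the secreted inhibitors. Effector genes were also longer, with a median of 64595 bp against 22906 bp for ligands and 5277 bp for receptors. Ends of other protein-coding genes held 32 ligand peaks (14.7%), 10 receptor peaks (9.17%), 10 effector peaks (7.87%) and no secreted inhibitor peak. The ligand number also counts peaks of 2 loci for both and includes ends of neighbouring ligand genes, such as that of Wnt1 for Wnt10b. Peaks between genes made up 34.1% at ligands, 39.4% at receptors, 41.2% at secreted inhibitors and 17.3% at effectors.

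**Figure D4:**
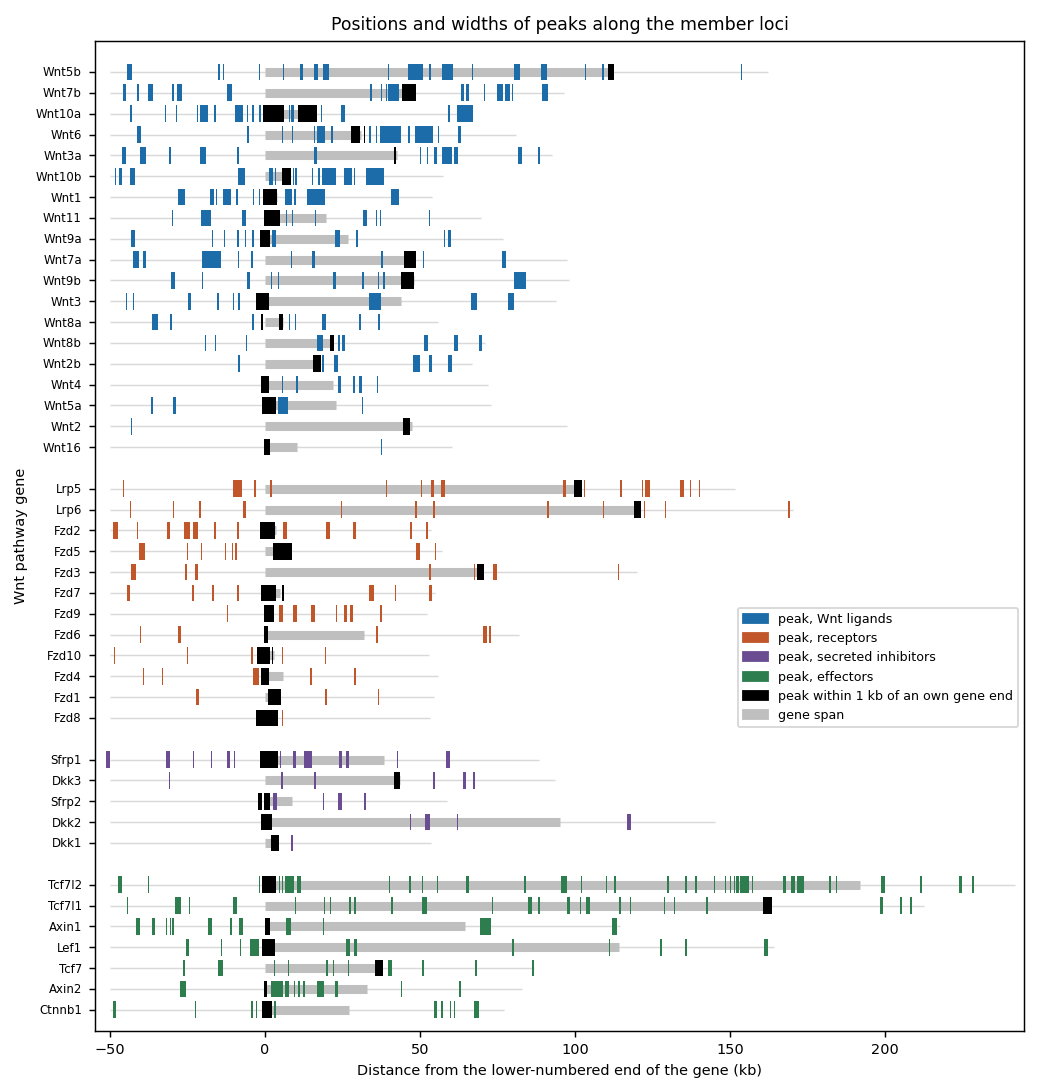
Peaks along the 43 loci, as distance in kb from the lower-numbered end of each gene. Grey bars are gene spans, black blocks peaks within 1 kb of an own gene end and coloured blocks other peaks, drawn to width except the narrowest, which are widened to be seen. Peaks of Tcf7l2 and Tcf7l1 fill the length of the genes, 32 and 21 of them overlapping the spans, while Wnt2 has 1 peak on its span.

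Among ligand genes the counts ran from 2 to 19 peaks. Wnt7b, a ligand of neural progenitors and of blood vessel growth in the brain, had 19 peaks in its locus on chromosome 15 (gene span 85535437 to 85581821), and 17 of them were distal, the most of any ligand. A peak of 4404 bp covered its upper end and another of 3602 bp lay inside the gene, less than 1 kb away. Wnt5b also had 19 peaks, in a longer gene of 112294 bp, with 15 of them distal. Wnt10a had 18, of which 9 were distal, and it ranked highest of all members within its length class, at the 97.4 percentile of protein-coding genes.

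Wnt7a, a relative of Wnt7b, had 11 peaks and the widest distal peak of any member locus. That peak was 6222 bp wide, from 91343489 to 91349711 on chromosome 6, and lay between genes, 14270 bp outside the Wnt7a span. A peak of 3856 bp covered the Wnt7a start. At the other extreme, Wnt2 and Wnt16 had 2 peaks each. The only peak on Wnt2 was 2289 bp wide and covered its listed start, and the other, of 97 bp, lay at an end of the neighbouring gene St7. Wnt2 was the only member with no distal peak. At Wnt16 a peak of 1991 bp covered the start, and the other lay inside Fam3c. Of the remaining unpaired ligand genes, Wnt11 had 13 peaks, Wnt8a and Wnt8b 10 each, Wnt2b and Wnt4 7 each and Wnt5a 5.

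Loci with 50 kb on each side overlap widely at neighbouring ligand genes, so by this definition most of their peaks counted for both. Wnt6 and Wnt10a, 6696 bp apart on chromosome 1, had 17 and 18 peaks and shared 16. Wnt1 and Wnt10b, 11650 bp apart on chromosome 15, had 13 and 15 and shared 12. Wnt3a and Wnt9a, 16097 bp apart on chromosome 11, had 16 and 12 and shared 10. Wnt3 and Wnt9b, whose spans overlap on chromosome 11, had 10 and 11 and shared 8, among them 1 peak of 4115 bp over the Wnt3 start and the upper end of Wnt9b. The listed start of Wnt9b lay inside its span, under a separate peak of 940 bp. In the Wnt3a and Wnt9a pair a called peak, of 3285 bp, lay on the listed start of Wnt9a and none on that of Wnt3a.

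Receptor genes ranged from 2 to 17 peaks, and in several of them 1 peak was wide. Lrp5 had 17 peaks, Lrp6 15 and Fzd2 13, followed by Fzd5 with 11, Fzd3, Fzd7 and Fzd9 with 9 each, Fzd6 and Fzd10 with 7 each, Fzd4 with 6 and Fzd1 with 4. The lowest count was that of Fzd8, 2 peaks, of which 1 was the widest gene-end peak of any member, 7015 bp, which covered 100% of the gene (3346 bp long, on chromosome 18). Fzd9 lay wholly under a peak of 3124 bp (100% of 2110 bp), and peaks covered 84.3% of Fzd2, 77.7% of Fzd1, 75.1% of Fzd7, 67.3% of Fzd5 and 62.5% of Fzd10. These Frizzled genes are short, and many consist of a single coding exon. Of the 13 members shorter than 10 kb, 9 had at least 50% of their span under peaks, beside 11.9% of protein-coding genes shorter than 10 kb. The latter were not matched to the members for CpG content or for a gene-end peak. The other 2 of those 9 were the ligand genes Wnt1 (97.1%) and Wnt10b (50.5%). The longer receptor genes were covered little, with 3.19% at Fzd3, 3.64% at Fzd6, 6.18% at Lrp5 and 3.07% at Lrp6. The Fzd4 peak of 2564 bp also lay on an end of the neighbouring gene Tmem135, so the 2 genes share it.

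Very broad peaks lay on 11 of 43 members (25.6%, exact 95% interval 13.5 to 41.2), beside 3.80% of protein-coding genes. They overlapped the spans of the ligands Wnt1, Wnt5a, Wnt5b, Wnt10a and Wnt11, the receptors Fzd2, Fzd5, Fzd7 and Fzd8, the inhibitor Sfrp1 and the effector Tcf7l2. By class that was 5 of 19 ligands, 4 of 12 receptors, 1 of 5 secreted inhibitors and 1 of 7 effectors. The exact intervals were 9.15 to 51.2 for ligands, 9.92 to 65.1 for receptors, 0.505 to 71.6 for inhibitors and 0.361 to 57.9 for effectors. All these intervals take genes as independent draws, which members of a fixed list are not, so they do not compare the classes. Among the 30 members with a listed promoter 6 had a very broad peak, and weighting protein-coding genes to their CpG classes gave 5.56%. All 6 were in the CpG-richest class, where 22 members fell and where 6.31% of protein-coding genes had a very broad peak.

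The width that set the broadest 1% was 4479 bp, and several members lay next to it. Wnt5a, with 4480 bp, was just inside and Wnt7b, with 4404 bp, just outside. Of the members inside, Wnt10a had 6845 bp at one end and 5866 bp at the other, Fzd5 6188 bp, Sfrp1 5679 bp, Wnt11 5264 bp, Fzd7 4885 bp, Fzd2 4686 bp, Tcf7l2 4621 bp and Wnt1 4592 bp. The peak of 4952 bp on Wnt5b lay inside the gene at an end of Fbxl14, a gene within Wnt5b, and the Wnt5b ends had no very broad peak. Across the 43 members, which are not independent points, the width of the widest gene-end peak and the number of distal peaks had a Spearman rho of 0.19.

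**Figure D5:**
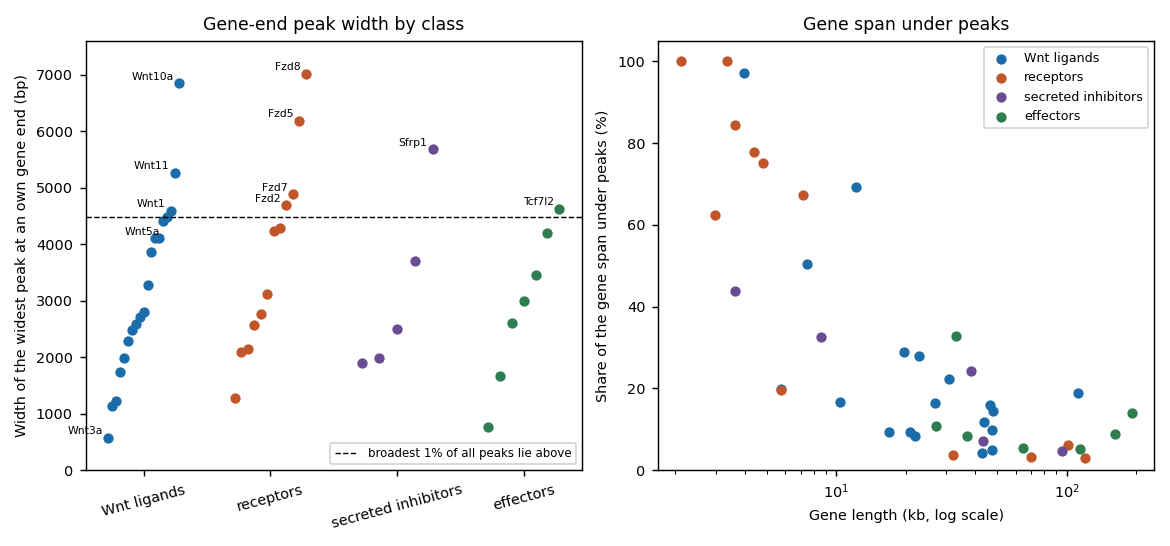
Left, width in bp of the widest peak within 1 kb of an own gene end for each member, by class, with the width of the broadest 1% of all peaks as a dashed line. Right, the share of each gene span under peaks against gene length on a log scale. Fzd8 has the widest peak at 7015 bp and Wnt3a the narrowest at 575 bp, and the share under peaks is high in short genes.

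Among secreted inhibitor genes the counts ran from 2 to 14 peaks. Sfrp1, which encodes a Wnt-binding antagonist, had 14 peaks, 12 of them distal, and a peak of 5679 bp over one end of the gene on chromosome 8 (span 23411383 to 23449632). No other protein-coding gene lay in its locus. Another 5 peaks besides that one lay within the gene, the widest of 2590 bp. Sfrp2, of the same family, had 6 peaks and a start peak of 1987 bp. Dkk3 had 7 peaks, Dkk2 5 over a locus of 195 kb, and Dkk1 2, of which 1 peak of 2491 bp covered the promoter printed above. Sfrp1 lay at the 89.4 percentile of its length class and Dkk1 and Dkk2 at 27.7 and 27.4.

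Effector genes all had at least 11 peaks. Tcf7l2 had 40, of which 37 were distal and 32 overlapped the gene of 191863 bp on chromosome 19 (55741797 to 55933659). It lay at the 94.7 percentile of its length class, whose median was 12. Tcf7l1, which encodes the family member best known as a repressor, had 28 peaks, 22 of them distal. Lef1, of 114061 bp, had 12, the median of that length class, and Tcf7 had 12 in a gene of 36857 bp where the median was 6. Axin1, a scaffold of the destruction complex, had 13 peaks, but only 4 were distal, and 8 other protein-coding genes lay in its locus, the most of any member.

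Axin2 differed from Axin1 in that its peaks lay in the gene. It had 11 peaks, 9 of them distal, and 8 overlapped its span of 32956 bp on chromosome 11, so that 32.8% of the span was under peaks, against 5.39% at Axin1. The promoter printed above lay inside the span under a peak of 3953 bp, which is among the 9 counted as distal. A second peak of 771 bp covered the lower end of the span, upstream of that start. Ctnnb1 had 11 peaks, with 1 of 3455 bp over both listed starts and 1 other overlapping the gene.

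Other genes of the Wnt pathway were counted in the same way from a list of 57, all of which were found. They had a median of 11 peaks per locus, and 67.8 per Mb, 1.59 times all protein-coding loci. Of them 55 of 57 had a gene-end peak (96.5%), beside the 67.3% given above, and 6 a very broad peak (10.5%, beside 3.80%). The most peaks were at Ror2, a receptor for Wnt5a, and at the co-repressor gene Tle3, with 21 each. Among 3 genes with 20 each was Celsr1, of planar cell polarity. Within their length classes Ror2 lay at the 76.1, Tle3 at the 98.1 and Celsr1 at the 73.8 percentile. Those with a very broad peak were Apc2, Tle1, Tle3, Bcl9, Bcl9l and Vangl2, and the peaks there reached 8049 bp in the Apc2 locus and 7406 bp in the Tle3 locus. The 2 genes without a gene-end peak were Dkk4 and Dkkl1, both relatives of the Dkk inhibitors.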

How the data were processed

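Per the labels, nuclei of E14.5 striatum were processed with 10x Genomics single-cell ATAC reagents, in 2 libraries of 1 group. Whether separate embryos were used for each library is not stated. The submitters' processing notes name the build mm10 and, as tools, Signac and Cell Ranger ATAC 1.2.0. The role of each tool, how peaks were called, whether libraries were pooled and how doublets were treated are not given in the sources used here. The authors deposited 87174 peak positions. Whether they count from 0 or 1 is not stated, so printed positions can be off by 1 base.

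Gene spans came from a RefSeq table of GRCm38.p6, the assembly mm10 names. Of its 49997 genes, 402 were left out for lying on scaffolds or outside chromosomes 1 to 19, X and Y, or for a symbol listed more than once. Of those kept, 21774 were protein-coding. That table has no strand, so gene-end windows took both ends, and starts came from the RefSeq promoter table. Counting of overlaps was checked on simulated peaks. Length classes are 10 equal groups of protein-coding genes and CpG classes 5 groups of promoters. Intervals are exact binomial (Clopper-Pearson). Work used Python 3.11.15, pandas 2.3.3 and scipy 1.17.1.

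Members and lists were chosen with earlier results of these data known. Named by rule were the 3 members of each class with most peaks, those with a very broad peak, those without a gene-end peak, neighbours sharing peaks and, of the other pathway genes, up to 3 with most peaks and up to 3 without a gene-end peak. The remaining genes named, such as Wnt3a, Wnt8b, Wnt2, Wnt16, Wnt7a and Axin2, were chosen after their values were seen. Analyses of CpG content, several starts and very broad peaks by CpG class were added after the data had been seen, as were the counts without Tcf7l1 and Tcf7l2, without Lrp5 and Lrp6 or without Sfrp1. Alternatives changed the flank, the window, the peaks counted and the way of counting.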

Additional observations from a re-analysis of the deposited data

How the results depend on the processing

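The number of distinct peaks at the Wnt pathway loci, 441, followed the size of the locus and of the peak set: 264 with a flank of 10 kb, 663 with one of 100 kb and 252 with only peaks wider than the median. It was 439 by peak midpoint, 433 without peaks under 20 bp and 318 for distal peaks alone. With only wide peaks the density fell to 49.0 per Mb for ligands, 33.4 for receptors and 53.4 for effectors, by construction since fewer peaks are counted, and that of all protein-coding loci to 22.1. Other ways of counting moved no class density by over 1.5 times. Gene-end shares stayed at 100% in every class except for ligands with a window of 500 bp, where Wnt2 and Wnt3a lost their peak (89.5%, beside 64.8% of protein-coding genes), and with listed starts only (93.3% of 15 ligands, beside 66.6%). Among single loci, peak counts moved by over 1.5 times at 33 of 43 members with a flank of 10 kb, 23 with 100 kb, 25 with wide peaks, 17 with distal peaks and 0 by midpoint or without peaks under 20 bp. Leaving out a library was not run, since the list names none. No paired analysis was possible because there is 1 group. Depth is unknown, so a missing peak does not show that a region is closed.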

Other observations

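Some pathway genes outside the 43 had few called peaks in their loci. Rspo3, which encodes an R-spondin that strengthens Wnt signalling, and Amer1, an X-linked gene for a regulator of β-catenin destruction, had 1 peak each in their loci. Frzb, an Sfrp relative, had 3 and Wls, which encodes the carrier for Wnt secretion, had 4. In each of these 4 genes a peak lay at a gene end, whereas Dkk4, also with 3 peaks in its locus, had none there.

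Among the 441 peaks at Wnt pathway loci, 8 were under 20 bp wide, and the narrowest had 3 bp. One of 10 bp lay 640 bp beyond the upper end of Tcf7l2 and one of 17 bp inside Sfrp1. What such short entries of the deposited list represent was not tested.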
